A study of Homo sapiens with 9 samples.

Results

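The HSP90 chaperone genes and their heat shock partners were followed here through every probe set whose only gene symbol is HSP90AB1, HSP90AA1, HSP90B1, DNAJB1, HSPA8, HSPH1, HSPB1, STIP1, AHSA1 or HSF1. Of 54675 probe sets on the array, 19 met this rule. They belong to 8 of the 10 genes, out of 19775 genes with a probe set of their own: 4 to HSP90AA1, 3 each to HSP90AB1 and HSPH1, 2 each to HSP90B1, DNAJB1, STIP1 and HSF1, and 1 to HSPB1. HSPA8 had 0 such probe sets because its 4 are annotated together with small nucleolar RNA genes, and AHSA1 had 0 in the platform annotation used. The genes were selected on measured differences between these same arrays, and which of the 3 comparisons was used is not recorded, so all 3 are treated as used. Their values, standard errors and adjusted p are given as a description of where they lie in the fit over all probe sets.

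The cells were Hec50, an established human endometrial cancer line. Gene expression was measured on 1-colour Affymetrix arrays in 3 groups of 3. One group was transfected with a synthetic mimic of miR-200c at 60 nM for 48 hours, one with a scrambled negative control RNA at the same dose and time, and one was mock transfected, for which the labels give neither dose nor time. All groups are 1 cell line, and no label states that the 3 arrays of a group are separate cultures. A p-value here therefore covers the spread among these arrays alone, and that spread may be technical. The deposited values are log2 expression from which the median of the 9 arrays was subtracted for each probe set. A value of 0 is that median, and only differences between arrays can be read from it.

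HSP90 is an abundant ATP-driven chaperone that brings kinases, steroid receptors and other client proteins to their active state. HSP90AB1 encodes its constitutive cytosolic form and HSP90AA1 its stress-inducible cytosolic form, while HSP90B1 encodes the form of the endoplasmic reticulum. Clients reach HSP90 from HSP70 proteins such as HSPA8, which work with J-domain partners such as DNAJB1 and with nucleotide exchange factors such as HSPH1. STIP1 bridges HSP70 and HSP90, AHSA1 stimulates the ATPase of HSP90, HSPB1 is a small heat shock protein that holds unfolded proteins, and HSF1 is the transcription factor that drives many of these genes during heat shock.

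The sequence of the mature microRNA that the mimic is named for is shown with its seed, bases 2 to 8, in capitals. It is credited to RefSeq on GRCh38.p14, at chr12:6963742-6963764 on the plus strand. The labels do not give the mimic's own sequence. The related miR-200b-3p, at chr1:1167160-1167181 on the plus strand, carries the same letters from base 2 to base 8.
hsa-miR-200c-3p: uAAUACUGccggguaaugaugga
hsa-miR-200b-3p: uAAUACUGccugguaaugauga

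The promoters below are those of 3 members whose RNA moved in different ways, and they are shown because HSF1 acts through heat shock elements in such sequence. Each runs from 250 bases before to 50 bases after an annotated RefSeq start on GRCh38.p14, in the direction of the gene. The search used 3 alternating units, spelled GAANNTTCNNGAA and, for the other strand, TTCNNGAANNTTC, and then 2 units, spelled GAANNTTC and TTCNNGAA, each of which reads the same on both strands. Capitals mark 3-unit matches in HSP90AB1 and HSP90AA1 and 2-unit matches in DNAJB1, where no 3-unit match stood in the window. The windows are chr6:44247693-44247992 (plus strand), chr14:102086995-102087294 (minus strand) and chr19:14518348-14518647 (minus strand).
HSP90AB1: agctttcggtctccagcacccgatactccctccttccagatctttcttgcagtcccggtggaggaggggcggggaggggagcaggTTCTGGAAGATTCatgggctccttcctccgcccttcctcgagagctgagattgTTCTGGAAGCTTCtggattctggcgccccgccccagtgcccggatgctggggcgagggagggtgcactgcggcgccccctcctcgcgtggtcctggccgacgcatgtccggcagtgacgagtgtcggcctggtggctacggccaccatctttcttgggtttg
HSP90AA1: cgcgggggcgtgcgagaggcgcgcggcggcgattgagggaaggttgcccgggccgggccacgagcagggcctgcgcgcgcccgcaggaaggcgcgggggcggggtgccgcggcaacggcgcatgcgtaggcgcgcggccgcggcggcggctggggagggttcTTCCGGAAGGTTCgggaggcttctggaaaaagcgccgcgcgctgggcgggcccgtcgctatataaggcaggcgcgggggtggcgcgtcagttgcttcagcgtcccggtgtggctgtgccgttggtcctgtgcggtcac
DNAJB1: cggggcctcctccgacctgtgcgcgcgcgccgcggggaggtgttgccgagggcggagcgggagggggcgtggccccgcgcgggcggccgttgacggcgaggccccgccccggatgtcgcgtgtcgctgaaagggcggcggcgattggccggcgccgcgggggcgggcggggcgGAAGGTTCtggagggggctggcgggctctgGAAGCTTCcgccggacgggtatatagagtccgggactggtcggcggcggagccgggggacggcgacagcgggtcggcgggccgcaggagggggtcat

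The 3-unit motif occurs in 172 of the 35116 annotated promoters of this length (0.49%) and the 2-unit motif, which every 3-unit match contains, in 4737 (13.5%). Among the 16 annotated promoters of the listed genes, 3 held the 3-unit motif, 1 each of HSP90AB1, HSP90AA1 and HSPA8, and 7 held the 2-unit motif. Counted from the transcript start, the 3-unit matches begin at -165 and -112 in the HSP90AB1 window and at -88 in the HSP90AA1 window. The 2-unit matches of the DNAJB1 window begin at -77 and -47. The HSP90AA1 window holds 3 matches to the 2-unit motif, and not all of them lie within its 3-unit match. What lies outside it is not in capitals. HSP90AB1 and HSP90AA1 have further annotated starts without a match. DNAJB1 has a further start without a match and another with a 2-unit match that begins at 2. Which start these cells used was not measured. HSF1 had no entry in the promoter table. A match is a description of the letters and not of a bound site.

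Of the 19 probe sets, 18 had a median level of 8 or more on the log2 scale and 1, of HSF1, lay from 4 to 8, by a class recovered from the rounding of the stored numbers. Over all probe sets tested 30.13% were at 8 or more. The check of the mimic gave higher CDH1 and lower ZEB1, the transcriptional repressor that miR-200 microRNAs pair with: CDH1 probe sets differed by 0.58 and 3.26 between mimic and scrambled arrays and 3 of 4 ZEB1 probe sets were called lower. Of 8 epithelial and endometrial markers, 5 had a probe set at 8 or more, KRT8, KRT18 and PAX8 among them. The leukocyte gene PTPRC and the endothelial gene CDH5 were below 4, while LAPTM5 of the leukocyte markers and COL1A1 and COL1A2 of the fibroblast markers reached 8 or more. A class says nothing of signal over background. The control probe sets at both ends of ACTB, a measure of RNA quality, had centred 3' minus 5' values of 0.016 ± 0.084 in mimic, 0.099 ± 0.036 in scrambled and -0.18 ± 0.027 in mock arrays (SD, n = 3 each). The same value for GAPDH lay between -0.055 and 0.059 in all 9 arrays.

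In the fit over all probe sets, HSP90AB1 was the only member gene called lower in mimic arrays, on each of its 3 probe sets. It was 1.72-fold to 1.83-fold lower than in scrambled arrays and 1.76-fold to 1.93-fold lower than in mock arrays. In the same cells DNAJB1, HSPH1 and part of the HSP90AA1 probe sets were higher than in scrambled arrays, and HSPH1 was also higher than in mock. Of the 19 probe sets, 7 were called higher and 3 lower in mimic than in scrambled arrays, at a Benjamini-Hochberg adjusted p under 0.05 by limma over 54613 probe sets, where 8.66% of all probe sets were called (4.52% higher and 4.15% lower). Among probe sets at a level of 8 or more, where 18 of the 19 lie, 16.2% were called. The groups did not overlap in 13 of the 19, against 24.2% of all probe sets. Tested among probe sets at a level of 8 or more alone, 9 members were higher and 4 lower. In that fit 2118 of 16455 probe sets were called higher and 2354 lower. The median log2 change of the 19 was 0.14, beside -0.0078 over all probe sets.

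HSP90AB1 lies on chromosome 6 at 44246194 to 44253883 (GRCh38.p14). Its probe set 214359_s_at had centred log2 values of -0.88, -0.85 and -0.95 in mimic arrays, against -0.085, 0.024 and 0 in scrambled arrays and 0.029, 0.078 and 0.059 in mock arrays. All mimic arrays were lower than all 6 other arrays, with a wide gap between. The log2 change was -0.87 against scrambled (SE 0.054, limma adjusted p = 6.77e-06) and -0.95 against mock (SE 0.054, adjusted p = 4.67e-06).

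Probe set 200064_at had -0.74, -0.85 and -0.82 in mimic arrays, against -0.055, 0.0023 and 0 in scrambled and 0.05, 0.059 and 0.11 in mock arrays. The mimic arrays again lay below the rest without overlap. Its log2 change was -0.78 against scrambled (SE 0.052, adjusted p = 1.17e-05) and -0.87 against mock (SE 0.052, adjusted p = 6.46e-06). Probe set 1557910_at had -0.73, -0.72 and -0.83 in mimic arrays, against -0.031, 0 and 0.11 in scrambled and 0.00032, 0.069 and 0.10 in mock arrays. Its log2 change was -0.79 against scrambled (SE 0.06, adjusted p = 2.68e-05) and -0.82 against mock (SE 0.06, adjusted p = 2.26e-05). The 3 probe sets read the same gene, so they are not independent of each other. Between scrambled and mock arrays they differed by -0.09 to -0.029, and 0 of the 3 were called (adjusted p = 0.376 to 0.837). Scrambled arrays lay below all mock arrays in 200064_at and 214359_s_at and overlapped with them in 1557910_at. These 2 groups did not overlap in 24.6% of all probe sets. Of all probe sets, 0.13% had a log2 change against scrambled as low as the lowest of HSP90AB1, and 0.11% one as low against mock.

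HSP90AA1, on chromosome 14 at 102080742 to 102139749, encodes a protein closely related to that of HSP90AB1, and its RNA did not fall with it. Probe set 211968_s_at had 0.11, 0.17 and 0.014 in mimic arrays, against -0.30, -0.14 and -0.25 in scrambled arrays and 0.097, -0.0085 and 0 in mock arrays. The scrambled arrays were the low ones, and mimic and mock arrays overlapped. It was 1.26-fold higher in mimic than in scrambled arrays (log2 change 0.33, SE 0.064, adjusted p = 0.00918), and its log2 change against mock was 0.069 (SE 0.064, adjusted p = 0.577).

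Probe set 211969_at had 0.06, 0.075 and 0.059 in mimic arrays, against -0.16, -0.18 and -0.097 in scrambled and 0, 0.0059 and 0 in mock arrays. It was 1.16-fold higher than in scrambled arrays (log2 change 0.21, SE 0.048, adjusted p = 0.0209). Against mock its log2 change was 0.063 (adjusted p = 0.481), although every mimic array lay above every mock array. The call against scrambled ended without scrambled replicate 1 or 2 and without mimic replicate 2 or 3 (adjusted p = 0.0575 to 0.0705), in a range over 16 alternatives of 0.00211 to 0.0705. The remaining probe sets 210211_s_at and 214328_s_at lay above scrambled without overlap but were not called, with log2 changes of 0.14 and 0.13 (adjusted p = 0.132 and 0.168). Both passed when only probe sets at a level of 8 or more were tested (adjusted p = 0.0247 and 0.0364). In these the mimic arrays spanned 0 to 0.07 and 0.043 to 0.13. Against mock they differed by 0.013 and 0.095 (adjusted p = 0.91 and 0.274).

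HSP90B1, on chromosome 12, had 2 probe sets under the rule, both of a type that can bind related transcripts. Probe set 216449_x_at had a log2 change of -0.17 against scrambled and -0.13 against mock, and 216450_x_at one of 0.042 and 0.32, with adjusted p from 0.122 to 0.892. Mimic arrays of 216449_x_at lay below all scrambled and all mock arrays, while those of 216450_x_at overlapped with both groups. Tested only among probe sets at a level of 8 or more, 216449_x_at was called lower against scrambled (adjusted p = 0.0349). The second spread widely within each group, from -0.38 to 0.00 in mock arrays alone. Its SE was 0.12, the largest among the members after HSF1. A further 2 probe sets list HSP90B1 beside MIR3652 and stand outside the rule. They had log2 changes of -0.063 and -0.095 against scrambled and of -0.083 and -0.18 against mock, not called (lowest adjusted p = 0.0516). In both, the mimic arrays lay below all mock arrays. Those of the latter probe set also lay below all scrambled arrays.

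**Figure D1:**
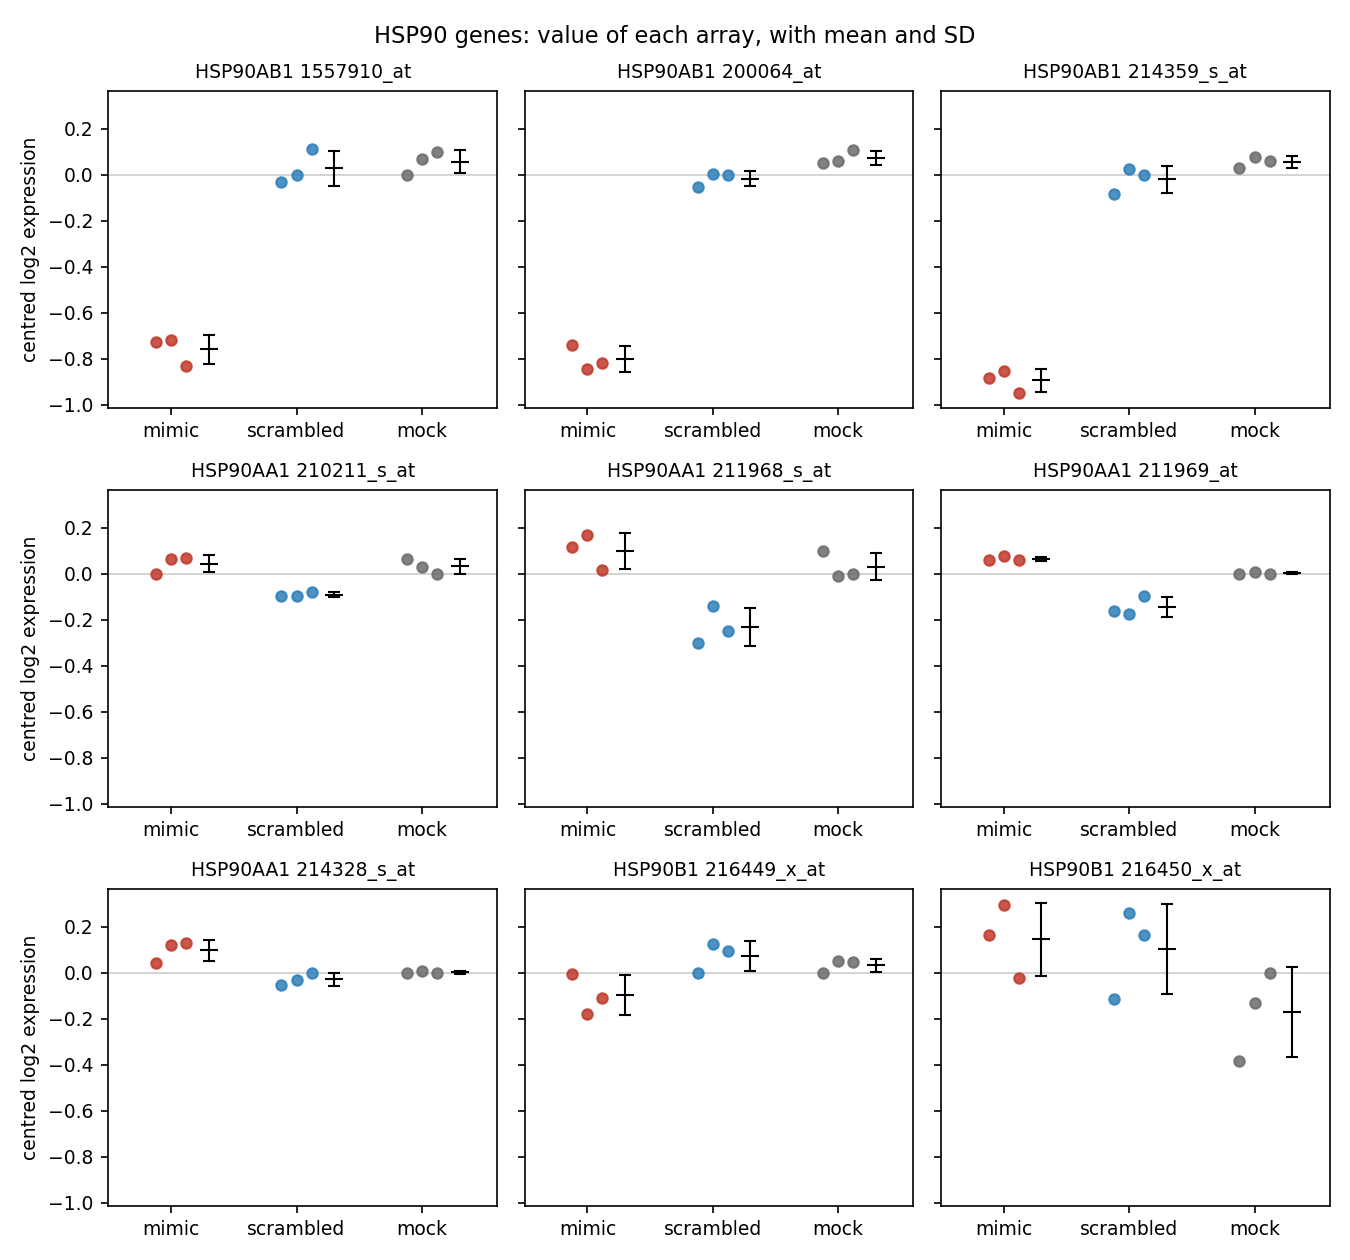
Centred log2 expression (vertical axis, 0 is the median of the 9 arrays) of the 9 probe sets of HSP90AB1, HSP90AA1 and HSP90B1 in mimic, scrambled and mock arrays. Points are arrays and the bar beside them is the mean ± SD (n = 3). The mimic arrays of HSP90AB1 lie at -0.72 or lower, and no other array of these genes lies below -0.38.

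DNAJB1 separated the scrambled arrays from both other groups. The gene lies on chromosome 19 at 14514769 to 14560391 and its protein stimulates the ATPase of HSP70. Probe set 200664_s_at had 0.086, 0 and 0 in mimic arrays, against -0.43, -0.51 and -0.48 in scrambled arrays and -0.023, 0.12 and 0.17 in mock arrays. All 3 scrambled arrays were below the other 6, and mimic and mock arrays overlapped. It was 1.42-fold higher in mimic than in scrambled arrays (log2 change 0.50, SE 0.062, adjusted p = 0.000574) and 1.47-fold lower in scrambled than in mock arrays (log2 change -0.56, adjusted p = 0.00181).

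Probe set 200666_s_at had 0.069, -0.022 and 0.05 in mimic arrays, against -0.35, -0.41 and -0.52 in scrambled and 0.00033, 0 and 0.079 in mock arrays. It showed the same order, with log2 changes of 0.46 for mimic against scrambled (SE 0.059, adjusted p = 0.000808) and -0.45 for scrambled against mock (SE 0.059, adjusted p = 0.00395). Between mimic and mock the 2 probe sets differed by -0.058 and 0.0059 (SE 0.062 and 0.059, adjusted p = 0.633 and 0.97). These comparisons share arrays, so a low scrambled group enters both. The ACTB 3' minus 5' value was also highest in the scrambled arrays, where it ranged from 0.063 to 0.14 against -0.047 to 0.11 in mimic arrays and -0.21 to -0.16 in mock arrays, and its part in the result was not tested.

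HSPH1, on chromosome 13 at 31134973 to 31162388, was highest in the mimic arrays on each of its 3 probe sets. Probe set 235573_at had 0.45, 0.44 and 0.31 in mimic arrays, against 0, -0.23 and 0.073 in scrambled arrays and -0.063, -0.004 and -0.0067 in mock arrays. The mimic arrays did not overlap with either control group. It was 1.37-fold higher than in scrambled (log2 change 0.45, SE 0.078, adjusted p = 0.00467) and 1.34-fold higher than in mock arrays (log2 change 0.43, adjusted p = 0.00545).

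Probe set 208744_x_at, also of a type that can bind related transcripts, had 0.26, 0.21 and 0.18 in mimic arrays, against -0.17, -0.15 and -0.11 in scrambled and -0.052, 0 and 0.069 in mock arrays. It was 1.28-fold higher than in scrambled (log2 change 0.36, SE 0.054, adjusted p = 0.00205) and 1.16-fold higher than in mock (log2 change 0.21, adjusted p = 0.0283). The call against mock ended without mock replicate 1 or 2 and without mimic replicate 1 or 2 (adjusted p = 0.0664 to 0.102), in a range over 16 alternatives of 0.00481 to 0.102. Probe set 206976_s_at had 0.086, 0.20 and 0.22 in mimic arrays, against -0.024, -0.078 and -0.024 in scrambled and -0.045, 0 and 0.03 in mock arrays. Here too the mimic arrays lay above the rest, at a smaller difference. It was called against scrambled (log2 change 0.21, SE 0.055, adjusted p = 0.0396) and not against mock (0.17, adjusted p = 0.069). The call against scrambled was the least secure among the members, since it ended without any 1 of 8 arrays, all but mimic replicate 1 (adjusted p = 0.0505 to 0.127, in a range over 16 alternatives that began at 0.00723). Against mock it passed without mimic replicate 1 (0.22, adjusted p = 0.0366), in a range of 0.0151 to 0.2 over 16 alternatives.

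In HSPB1, on chromosome 7 at 76302673 to 76304292, the mock arrays stood above the others. Its single probe set 201841_s_at had 0.081, 0 and -0.068 in mimic arrays, against -0.13, -0.029 and -0.17 in scrambled and 0.12, 0.14 and 0.17 in mock arrays. The mock arrays were the high ones, and mimic and scrambled arrays overlapped. The mock arrays also stood apart in the ACTB 3' minus 5' value, at -0.21 to -0.16 against -0.047 or above in all others, and its part in the result was not tested. It was 1.19-fold lower in scrambled than in mock arrays (log2 change -0.25, SE 0.059, adjusted p = 0.0437), while mimic differed by 0.11 from scrambled and by -0.14 from mock (adjusted p = 0.315 and 0.18). The call ended without any 1 of 7 arrays, which are all mock arrays, scrambled replicates 1 and 3 and mimic replicates 2 and 3 (adjusted p = 0.053 to 0.132, in a range over 16 alternatives that began at 0.00806).

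**Figure D2:**
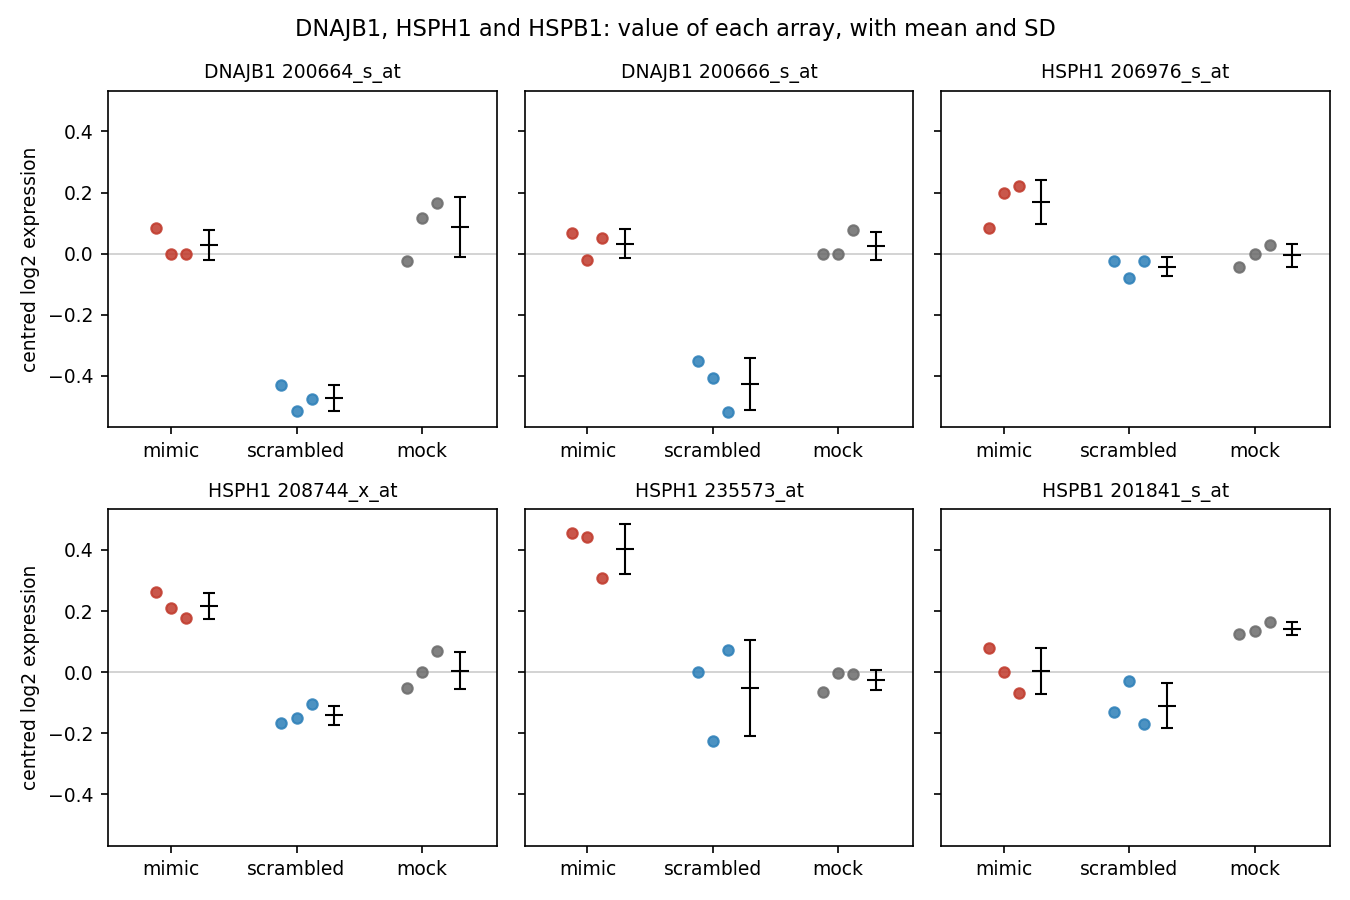
Centred log2 expression (vertical axis) of the 6 probe sets of DNAJB1, HSPH1 and HSPB1 in mimic, scrambled and mock arrays, with each array as a point and the mean ± SD beside it (n = 3). Scrambled arrays of DNAJB1 lie between -0.52 and -0.35 with all other arrays at -0.023 or above, and mimic arrays of HSPH1 lie above all others of their probe set.

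STIP1 and HSF1 were not called in any of the 3 comparisons. The STIP1 probe sets had log2 changes of 0.14 and 0.059 for mimic against scrambled, 0.095 and -0.016 against mock, and -0.041 and -0.075 for scrambled against mock, with SE of 0.069 and 0.054. For HSF1 the probe set 202344_at lay between -0.092 and 0.13 over the 9 arrays, with log2 changes of -0.062, -0.11 and -0.052 in the same order of comparisons (SE 0.054, adjusted p = 0.585, 0.233 and 0.656). The other, 213756_s_at, had -0.004, 0 and -0.22 in mimic arrays, -0.21, -1.37 and 0.19 in scrambled arrays and 0.098, 0.29 and 0.14 in mock arrays. Scrambled replicate 2 stood far below the rest and set an SE of 0.30. The log2 change of mimic against scrambled was 0.39 with that array and -0.066 without it, not called in either case.

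HSPA8, the constitutive HSP70 of the cytosol, was read through its 4 probe sets annotated together with SNORD14C and SNORD14D, which stand outside the rule. Their log2 changes lay between -0.0062 and 0.031 for mimic against scrambled and between -0.011 and 0.081 against mock, with adjusted p of 0.36 or more and SE of 0.047 to 0.052. By limma 0 of the 4 were called in any comparison, and 0 had an unadjusted p under 0.05. With these and the 2 further HSP90B1 probe sets, the counts stayed at 7 higher and 3 lower, now of 25.

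Against mock, 2 of the 19 probe sets were called higher, both of HSPH1, and 3 lower, all of HSP90AB1, where 12.1% of all probe sets were called (5.07% higher and 6.98% lower) and 22% of those at a level of 8 or more. The groups did not overlap in 11 of the 19, against 28.2% of all probe sets, and the median log2 change was 0.0059 beside 0.0085 over all. Between scrambled and mock arrays 0 were higher and 3 were lower, the 2 of DNAJB1 and that of HSPB1, where 4.07% of all probe sets were called (1.23% higher and 2.84% lower) and 8.33% at 8 or more. Tested among probe sets at 8 or more alone, 7 members were lower. In that fit 1346 of 16455 probe sets were called higher and 2125 lower. The calls over all probe sets, 670 higher and 1553 lower, were down to 155 and 577 without mock replicate 2 and were 565 or fewer and 1494 or fewer without any other array. The groups did not overlap in 9 of the 19, against 24.6% of all probe sets, and the median was -0.076 beside 0.013 over all. By limma the 0 higher probe sets stayed 0 under every alternative tried, and 1 was higher at an unadjusted p under 0.05. These 3 comparisons share arrays in pairs and are not independent. The member closest outside the threshold was 216449_x_at of HSP90B1 for mimic against scrambled (adjusted p = 0.122), 206976_s_at of HSPH1 against mock (0.069) and 211968_s_at of HSP90AA1 for scrambled against mock (log2 change -0.26, adjusted p = 0.0511). The last was called with quantile normalization (0.0383) and among probe sets at a level of 4 or more (0.0426) or 8 or more (0.011), in a range up to 0.156.

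**Figure D3:**
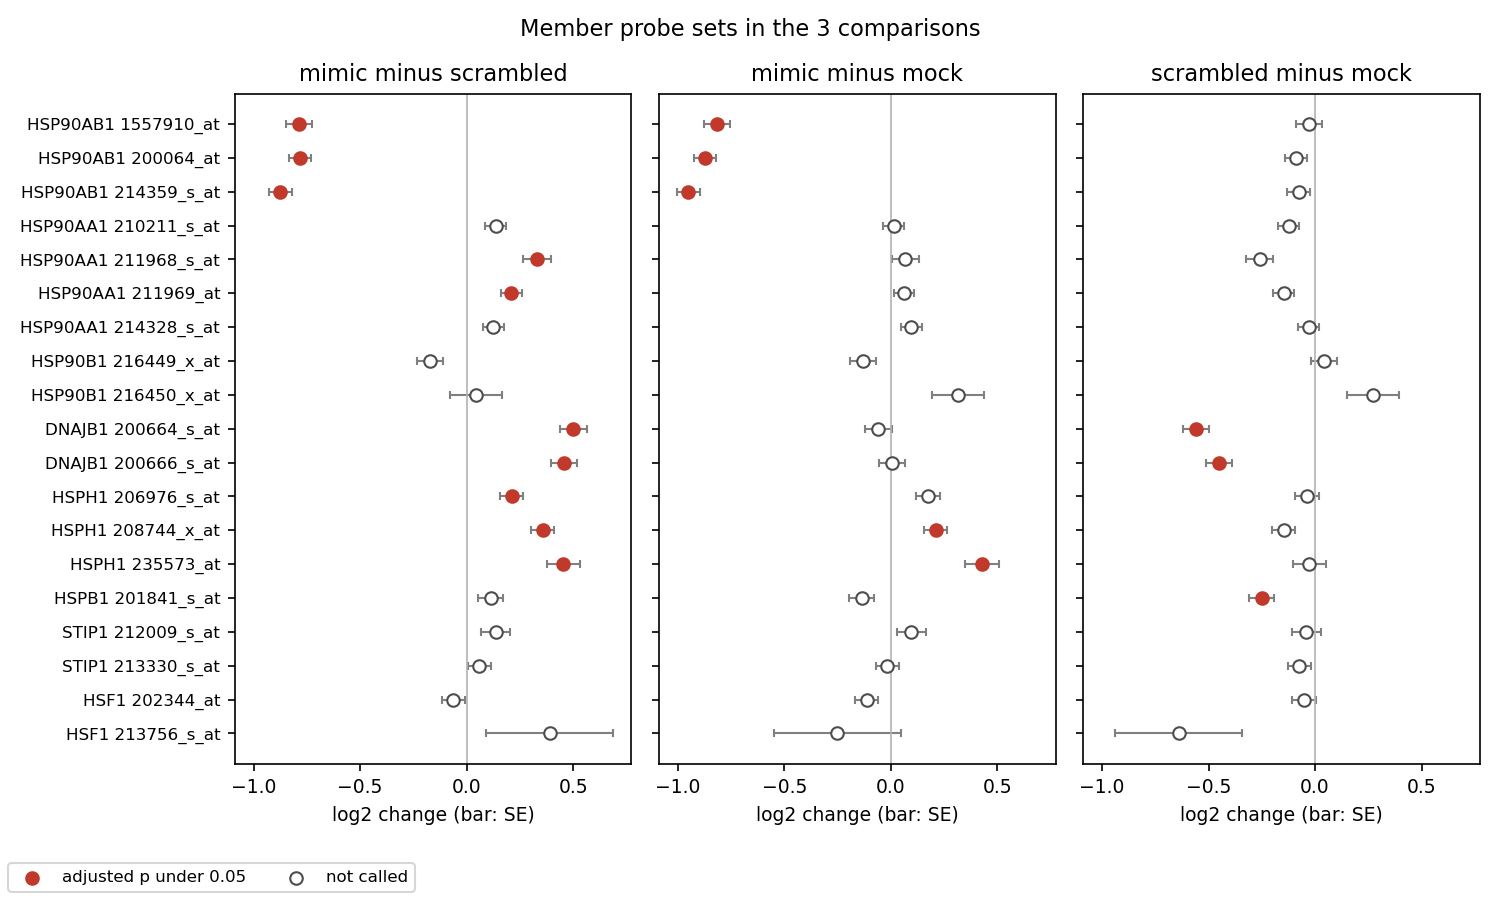
Log2 change (horizontal axis, bars are SE) of each of the 19 probe sets for mimic minus scrambled, mimic minus mock and scrambled minus mock, with filled points at an adjusted p under 0.05. HSP90AB1 stands at -0.95 to -0.78 in both comparisons of the mimic, and DNAJB1 is displaced in both comparisons that hold the scrambled arrays.

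Other genes of the chaperone system were read from 8 lists chosen with earlier results of these arrays known. Of 95 genes, 90 had a probe set of their own, 203 probe sets in all. Some genes stand in more than 1 list. Each list's count is set beside the share of all probe sets called, which was 8.66% for mimic against scrambled (median log2 change -0.0078), 12.1% for mimic against mock (median 0.0085) and 4.07% for scrambled against mock (median 0.013). Among probe sets at a level of 8 or more these shares were 16.2%, 22% and 8.33%. Nothing is read from a list's share against these, and a named gene's count of called probe sets is given where it has several.

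Of 12 measured HSP70 and HSP110 genes other than the members, 2 had a probe set higher and 3 one lower in mimic than in scrambled arrays, with HSPA4L in both directions. In all, 2 of 27 probe sets were higher and 3 lower (18.5% called, beside 8.66% of all probe sets), with a median log2 change of -0.014 beside -0.0078 over all. The mitochondrial HSP70 gene HSPA9 had 1 of 4 probe sets lower by 0.32 on the log2 scale (SE 0.058, adjusted p = 0.00659), and that probe set was 0.39 higher in scrambled than in mock arrays (adjusted p = 0.00688). The only probe set of HSPA2, a testis-enriched HSP70, rose by 0.26. HSPA4L, a relative of HSPH1, had 1 probe set at -0.27 and the other at 0.22. Against mock the counts were again 2 and 3 of 27 (18.5%, beside 12.1% of all). The HSPA4L probe sets were then at -0.40 and 0.26, and 1 of 2 probe sets was lower for HSPA12A, by 0.42, and for HSPA13, by 0.32. That HSPA12A probe set was also lower in scrambled than in mock arrays, by 0.25 (limma adjusted p = 0.0358). Between mimic and scrambled arrays it differed by -0.17 and was not called (adjusted p = 0.0826).

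Among 17 J-domain genes, DNAJB6, DNAJB9 and DNAJA3 had probe sets higher in mimic than in scrambled arrays and DNAJB14 and DNAJC3 had probe sets lower. This was 5 probe sets higher and 3 lower of 44 (18.2% called, beside 8.66% of all and 16.2% at a level of 8 or more), with a median of 0.0098 beside -0.0078. DNAJB9, an endoplasmic reticulum member, rose on 2 of 3 probe sets, by 0.41 and 0.31. DNAJB6, which suppresses aggregation, rose by 0.30 on its only probe set and was lower in scrambled than in mock arrays by 0.22 (adjusted p = 0.0498). DNAJB14 fell by 0.35 and 0.19 on 2 of 3. Against mock, 2 were higher and 2 lower of 44 (9.09%, beside 12.1% of all). Among them were 1 of 2 probe sets of DNAJB4 at 0.27, 1 of 4 of DNAJC3 at -0.37 and 1 of 3 of DNAJB14 at -0.27.

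The list of HSP90 co-chaperones other than STIP1 and AHSA1 also holds TRAP1, the mitochondrial form of HSP90. This list had 0 probe sets higher and 1 lower of 39 by limma for mimic against scrambled (2.56% called, beside 8.66% of all). Its median was 0.019 beside -0.0078. At an unadjusted p under 0.05, 8 were higher and 3 lower. That one was 1 of 5 probe sets of SUGT1, a partner of HSP90 in kinetochore assembly (-0.28, SE 0.061, adjusted p = 0.0157). Against mock there were 4 higher and 4 lower of 39 (20.5%, beside 12.1% of all and 22% at a level of 8 or more), with a median of -0.044 beside 0.0085. SUGT1 had 2 of 5 probe sets lower, by 0.47 and 0.21, and UNC45A, which folds myosin with HSP90, had 1 of 2 lower, by 0.27. For the steroid receptor co-chaperone FKBP5, 1 of 3 probe sets was higher, at 0.22, and the others were at -0.16 and -0.12 and not called. Between scrambled and mock arrays 2 of 39 were lower (5.13%, beside 4.07% of all). One was the only probe set of the kinase co-chaperone CDC37 (-0.27, adjusted p = 0.0328), and the other was 1 of 5 of SUGT1 (-0.36, adjusted p = 0.0116), whose other probe sets lay at 0.018 to 0.097 and were not called. CDC37 was also lower in mimic than in mock arrays, by 0.21 (limma adjusted p = 0.0415).

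Small heat shock proteins other than HSPB1 held 1 lower and 0 higher of 11 probe sets in both comparisons of the mimic (9.09% called, beside 8.66% of all against scrambled and 12.1% against mock). It was the only probe set of CRYAB, alpha B crystallin, which fell by 0.30 against scrambled and 0.35 against mock (adjusted p = 0.0151 and 0.0051 by limma). Nucleotide exchange factors of HSP70 held 2 higher and 1 lower of 17 for mimic against scrambled (17.6%, beside 8.66% of all), with 2 of 3 probe sets of BAG1 at 0.32 and 0.25. For BAG4, 1 of 3 was lower, at -0.22, and the others were at 0.067 and 0.099 and not called. Against mock 0 of 17 were called by limma, with 1 higher and 1 lower at an unadjusted p under 0.05. Of 18 chaperonin probe sets 0 were called by limma against scrambled, with 1 lower at an unadjusted p under 0.05, and 1 of 2 of CCT5 was 0.28 lower than in mock (5.56% of the list, beside 12.1% of all). Of 4 probe sets of heat shock factors and their regulators, the only one of HSF2BP, a partner of HSF2 with a role in meiotic recombination, rose by 0.40 against scrambled (SE 0.081, adjusted p = 0.0122) and 0.73 against mock (adjusted p = 0.00029).

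Chaperones of the endoplasmic reticulum and the unfolded protein response, the pathway that controls HSP90B1, held 5 higher and 1 lower of 54 for mimic against scrambled (11.1% called, beside 8.66% of all and 16.2% at a level of 8 or more), with a median of 0.021 beside -0.0078. XBP1, a transcription factor of that response, had 1 of 2 probe sets higher, at 0.29, and the other at -0.21 and not called. The only probe set of SDF2L1 was at 0.25, and the DNAJB9 probe sets above count here too. Against mock there were 4 higher and 6 lower (18.5%, beside 12.1% of all), with a median of -0.062 beside 0.0085. XBP1 had 1 probe set at 0.36 and 1 at -0.37. The stress-induced membrane protein gene HERPUD1 had 1 of 2 higher, at 0.26, and the disulfide isomerase gene PDIA4 had 1 of 2 lower, at -0.32. CANX, the calnexin gene, was lower in scrambled than in mock arrays on 2 of 5 probe sets (-0.42 and -0.34). These 2 were also lower in mimic than in mock arrays (-0.41 and -0.35, limma adjusted p = 0.0107 and 0.00611). Between mimic and scrambled arrays they differed by 0.018 and -0.012 and were not called.

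**Figure D4:**
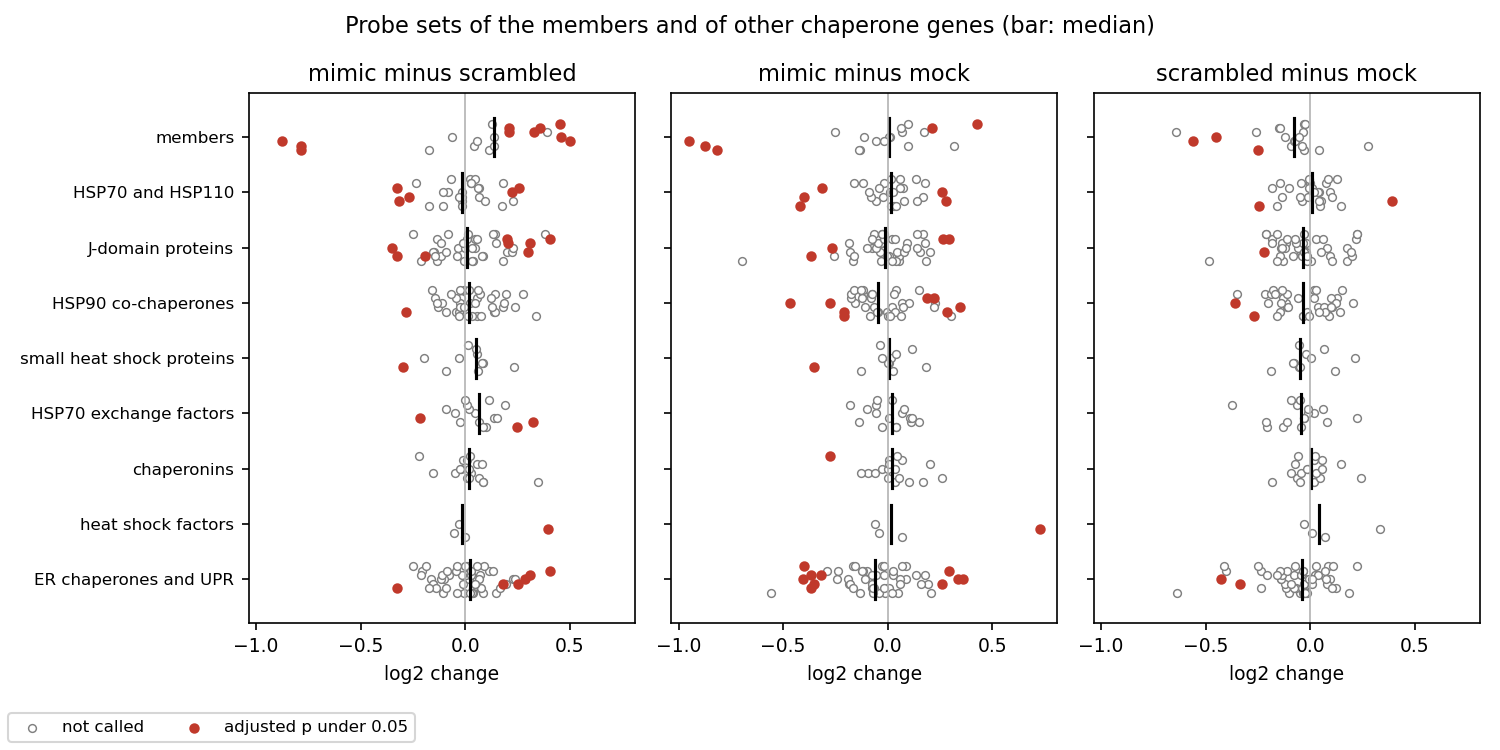
Log2 change (horizontal axis) of each probe set of the members and of the 8 other lists, in rows, for mimic minus scrambled, mimic minus mock and scrambled minus mock, with filled points at an adjusted p under 0.05 and a bar at the median. The 3 HSP90AB1 probe sets lie to the left of every other point in both comparisons of the mimic, and the medians of the 8 lists lie between -0.062 and 0.067 in these 2 panels, with those of the members at 0.14 and 0.0059.

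The genes whose pattern over the 9 arrays was most like HSP90AB1, by Pearson correlation of gene means among 8786 genes with a range of at least 0.3 on the log2 scale, were CFL2 (r = 0.999), AP1S2, ZEB1, ZNF148 (r = 0.997 each to 3 digits) and ARPC1A (r = 0.996). Their mimic arrays averaged -0.77, -0.75, -0.93, -0.31 and -0.90, and their scrambled arrays lay between -0.0046 and 0.062. Those most like DNAJB1 were GNA13 (r = 0.983), ADGRD1 (r = 0.981), GNB1, PNMA1 and MAP2K1 (r = 0.976). GNA13 averaged 0.049 in mimic, -0.46 in scrambled and 0.12 in mock arrays. The 9 points are 3 groups of 3 on shared arrays, so 1 group set apart from the others fixes most of such a correlation, and it is given as a description.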

How the data were processed

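Per the labels' protocols, RNA of each sample carried a biotin label and was read on an Affymetrix array of 1 colour. The values the authors deposited are log2 expression for 54675 probe sets and 9 arrays; how probes were summarised and normalised, and the base of the logarithm, are not given in the sources used here, and the values are read as log2. In 100.0% of probe sets the median over arrays was 0, and 48.89% held more than 1 value of exactly 0, which can lower the spread between arrays. The level class (8 or more, 4 to 8, below 4) was recovered from the step of single precision numbers, which doubles at 4 and 8; it gave the right class for 98.5% of 6000 simulated probe sets.

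Names came from the platform annotation of 2016: 41091 probe sets had 1 symbol, 1801 several and 11721 none, after 62 control probe sets were left out. A model of group means was fitted to each probe set over the 9 arrays (lmFit and eBayes of limma 3.58.1, R 4.3.3, two-sided), and p was adjusted by Benjamini-Hochberg over 54613 probe sets. Differences between 2 arrays of 1 group had an SD over probe sets of 0.131 to 0.182, and the median standard error was 0.0719; the number of arrays limits the precision. Tested on simulated data of mimic against scrambled arrays (54613 probe sets), the fit found 7.5%, 77.6% and 100% of log2 changes of 0.25, 0.5 and 1, with 9 false calls among 132. The arrays themselves gave 4730 calls. With fewer calls the adjusted threshold is stricter, so these shares may not hold for the arrays. Members and gene lists were chosen with earlier results of these data known. Array values are given for each member probe set called in any comparison, and from each list up to 3 genes, those of lowest p per comparison, are named. DNAJA3, DNAJC3 and the ranges of uncalled members were added to complete counts. Same-numbered arrays of different groups correlated in their deviations from the group means at -0.24 to 0.15, and differently numbered ones at -0.22 to 0.36. No effect shared by same-numbered arrays was seen, which does not show whether they were handled together.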

Additional observations from a re-analysis of the deposited data

How the results depend on the processing

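The lower calls of the 3 HSP90AB1 probe sets in both comparisons of the mimic, and the calls of both DNAJB1 probe sets in the comparisons that hold the scrambled arrays, kept their direction and passed under all 16 alternatives run per probe set, with adjusted p of at most 0.000478 and 0.0205. Array median centring, 1 of the 16, gave the same values as the main fit and adds nothing. With quantile normalization the HSP90AB1 changes against scrambled were smaller, at -0.70 to -0.64 beside -0.87 to -0.78. No called probe set changed direction under any alternative. Fitted per gene, by either mean of probe sets, the counts become genes: 3 higher and 1 lower for mimic against scrambled, and 1 higher and 1 lower against mock. For mimic against mock the 2 higher probe sets became 1 with the 2 groups alone, with the replicate block, and at a change of at least 1.2-fold. For scrambled against mock the 3 lower became 7 among probe sets at a level of 8 or more, where fewer probe sets were tested. In that fit 2125 of 16455 probe sets were called lower. Leaving out each array in turn gave 5 to 7 higher and 3 lower for mimic against scrambled, 1 to 2 higher and 3 lower against mock, and 0 higher and 2 to 3 lower for scrambled against mock.

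No effect shared by arrays of the same replicate number was seen, and whether they were handled together is not known. With the replicate block 211969_at of HSP90AA1 (adjusted p = 0.0531) and 206976_s_at of HSPH1 (0.0661) were not called against scrambled, 208744_x_at of HSPH1 (0.0606) was not called against mock, and 201841_s_at of HSPB1 (0.0793) was not called between scrambled and mock. The block moved the calls over all probe sets between scrambled and mock from 670 higher and 1553 lower to 352 and 1014, the 2 groups alone to 326 and 1083, and leaving out 1 array to 155 to 565 and 577 to 1494. At a level of 8 or more there were 1346 and 2125, of 16455 tested. For mimic against mock, 2771 higher probe sets became 1727 without mock replicate 2. Small changes, of about 0.25, were rarely recovered in the simulation. It had 132 calls against 4730 for mimic against scrambled in the arrays, so its threshold was stricter. That recovery may not hold for the arrays, and an uncalled member is not shown to be unchanged.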
